A study of Mus musculus with 6 samples.

Results

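The transcript levels of 6 related genes were compared between Prr14-WT and Prr14-KO mouse muscle: Mettl21a, Mettl21c and Mettl21e of the METTL21 branch of lysine methyltransferases, Smyd1 and Smyd2 of the SMYD methyltransferases, and Mss51, which shares the MYND zinc finger of the SMYD proteins. They are 6 of the 22036 genes in the count table. Mettl21c and Mss51 were selected on their measured levels, being nearly absent in the Prr14-KO libraries, and the other 4 joined because they belong to the same gene families. The difference of Mettl21c and Mss51 between genotypes is therefore described with no test, and tests are given only for members that joined by family.

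RNA came from the quadriceps femoris, a thigh muscle, of Prr14-WT and Prr14-KO mice, with 3 libraries of each genotype, numbered here 1 to 3 in accession order. Prr14 encodes a protein of the nuclear lamina, and the title of the series ties it to muscle fibre identity and to the transcription factor MEF2C. The labels give genotype and tissue only. They do not state the knockout allele, whether it acts in all cells or in muscle alone, the age and sex of the mice, or whether each library is 1 animal. The p-values thus set the difference between genotypes against the spread of these libraries, which may be technical and not between animals.

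METTL21 enzymes belong to a group of methyltransferases that add methyl groups to lysines of single, often abundant proteins such as chaperones and translation factors. Mettl21c and Mettl21e are expressed mainly in striated muscle, whereas Mettl21a, whose protein methylates chaperones of the HSP70 family, is expressed widely. SMYD proteins carry a catalytic SET domain split by a MYND zinc finger: SMYD1 is needed for myofibril assembly in heart and skeletal muscle, and SMYD2 methylates HSP90. MSS51 has a MYND finger without a SET domain, is enriched in fast glycolytic muscle, and has been linked to muscle energy metabolism and to TGF-beta and myostatin signalling.

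All 6 genes are protein coding and lie on the minus strand of GRCm38, as placed by GENCODE M21. Mettl21c (ENSMUSG00000047343, chr1:44009408-44020034) and Mettl21e (ENSMUSG00000046828, chr1:44204070-44218961) lie 184.0 kb apart, with 5 listed genes between them. Mettl21a (ENSMUSG00000025956) is at chr1:64606473-64617242 and Smyd2 (ENSMUSG00000026603) at chr1:189880492-189922363. Smyd1 (ENSMUSG00000055027) is at chr6:71213940-71322233, and Mss51 (ENSMUSG00000021815) at chr14:20482867-20496901. Within the coding sequence, Mettl21c and Mettl21e shared 62.5% of 707 aligned bases, Mettl21a and Mettl21e 59.5% of 632, and Mettl21a and Mettl21c 56.3% of 636. The longest identical run between any METTL21 pair was 11 bases, and Smyd1 and Smyd2 shared 59.5% of 1253 aligned bases with a longest run of 9. An exon of Smyd2 overlaps the antisense gene Gm37422, and Krcc1 lies on the opposite strand within Smyd1 with no shared exon. The sources used here do not say whether counting used strand, so reads of Smyd2 and its antisense gene cannot be told apart.

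Promoter windows from RefSeq (GRCm38.p6), which run from 250 bases before to 50 bases after the annotated start, were found for 4 of the 6 members: Mettl21a, Mss51, Smyd1 and Smyd2. The windows of 3 members are printed 5′ to 3′ on the minus strand, because they set a gene lost in KO (Mss51) beside a METTL21 gene and a MYND gene that were kept. Capitals mark each CG dinucleotide and each E-box (CANNTG), the motif bound by the myogenic factors. The windows are chr14:20496852-20497151 for Mss51, chr1:64617715-64618014 for Mettl21a and chr6:71262232-71262531 for Smyd1.
Mss51: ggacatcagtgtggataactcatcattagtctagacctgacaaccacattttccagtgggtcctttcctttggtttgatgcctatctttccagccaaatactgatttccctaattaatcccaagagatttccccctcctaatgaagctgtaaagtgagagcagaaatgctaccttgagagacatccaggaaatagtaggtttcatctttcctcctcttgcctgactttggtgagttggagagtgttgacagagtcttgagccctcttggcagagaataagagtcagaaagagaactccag
Mettl21a: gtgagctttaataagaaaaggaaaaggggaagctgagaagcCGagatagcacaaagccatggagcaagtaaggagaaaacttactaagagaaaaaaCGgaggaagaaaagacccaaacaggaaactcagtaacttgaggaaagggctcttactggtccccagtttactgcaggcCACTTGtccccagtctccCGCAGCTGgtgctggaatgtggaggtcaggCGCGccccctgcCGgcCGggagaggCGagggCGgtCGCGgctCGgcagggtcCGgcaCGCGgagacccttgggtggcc
Smyd1: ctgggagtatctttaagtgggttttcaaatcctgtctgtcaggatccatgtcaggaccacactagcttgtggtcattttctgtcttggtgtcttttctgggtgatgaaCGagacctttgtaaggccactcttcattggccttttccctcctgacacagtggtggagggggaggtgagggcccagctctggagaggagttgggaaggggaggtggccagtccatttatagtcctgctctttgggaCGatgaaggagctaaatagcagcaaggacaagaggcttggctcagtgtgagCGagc

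The Mss51 window held no E-box and no CG. Of 32851 promoter windows of the same length, 5.43% held no CG and the median was 7. Mettl21a had 15 CG and 2 E-boxes, which start 76 and 56 bases before the start, Smyd1 had 3 CG, and Smyd2, whose window is not printed, had 43, more than 97.4% of windows. E-boxes were absent from the windows of Mss51, Smyd1 and Smyd2, while 72.3% of all windows held at least 1. The 10-letter MEF2 motif, searched on both strands, was found in none of the 4 windows and in 3.19% of all windows. The Mss51 start is the same base in RefSeq and GENCODE, but the Mettl21a start of RefSeq lies 522 bases upstream of the GENCODE gene and the Smyd1 start lies 59952 bases inside it. These matches describe the letters in these windows only.

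The libraries held 1436099, 1586938 and 1712975 counts in WT and 1498322, 1488684 and 1678288 in KO. Levels are given as CPM, the counts scaled to a common library size, after TMM scaling, which corrects for differences in RNA composition. One count was worth 0.573 to 0.73 CPM. The table has few counts per gene, so a member at 0 in a library was not detected at this depth: 3 counts, the number that a count of 0 allows, correspond to 1.72 to 2.19 CPM. Prr14 itself had 9, 11 and 12 counts in WT and 4, 10 and 3 in KO (edgeR quasi-likelihood test with Benjamini-Hochberg adjustment, adjusted p = 0.196). The part of the gene deleted is not given, so these counts check the labels only in part. In CPM the groups did not overlap (6.57, 7.5 and 8.22 in WT, 2.45, 6.25 and 1.72 in KO), at a log2 fold change of -1.10, and the library labelled KO replicate 2 lay just under the lowest WT library. All 6 muscle-defining markers (Ckm, Acta1, Myh4, Mylpf, Tnnt3 and Ttn) were detected, summing to 160034 to 205145 CPM in WT and 114748 to 130534 in KO. Of these, 4 passed lower in KO (Acta1, Myh4, Mylpf and Ttn) and 0 higher, with a median log2 fold change of -0.71. Over all tested genes, 3.28% passed lower. Of 38 tested markers of 8 other cell types, 0 passed the test (adjusted p under 0.05 with edgeR) and 4 had groups that did not overlap. Over all tested genes these shares were 6.26% and 25.8%. In bulk muscle, fewer cells of a type and less RNA per cell cannot be told apart.

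Mettl21c, the muscle METTL21 gene with the higher level, was nearly lost in KO. Its counts were 64, 52 and 104 in the WT libraries and 5, 1 and 3 in the KO libraries, each in replicate order. That is 46.7, 35.4 and 71.2 CPM against 3.06, 0.625 and 1.72 CPM. Each WT library lay far above every KO library, and WT replicate 3 was the highest. The WT mean was 51.1 ± 18.3 CPM and the KO mean 1.8 ± 1.22 CPM (SD, n = 3 each). Pooled over libraries, KO held 3.53% of the WT level (exact binomial 95% interval 1.59 to 6.83%, for counting error only), 28.3-fold lower (14.7 to 62.8). The fitted log2 fold change was -4.76 (SE 0.42). Without KO replicate 1 the share was 2.34%.

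Mettl21e, the other muscle METTL21 gene, was detected in WT only. It had 5, 8 and 16 counts in the WT replicates and 0, 0 and 0 in KO. The WT levels were 3.65, 5.45 and 11.0 CPM, a mean of 6.68 ± 3.81 CPM (SD, n = 3). It did not pass the filter on low counts, so the test over 6680 genes does not include it. Against a floor of 3 counts over the KO group (0.602 CPM), it was at least 11.2-fold lower in KO, and at least 7.29-fold lower without KO replicate 3. With no filter, edgeR's test over 14292 genes gave an adjusted p of 2.50e-07, where 2.53% of genes were called lower. That fit is more permissive: it called 344 genes higher and 362 lower, against 199 and 219 with the filter, and the SE of Smyd1 was 0.14 in place of 0.25.

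Mettl21a, the widely expressed METTL21 gene, did not share this loss. Its counts were 22, 23 and 25 in WT and 55, 36 and 40 in KO, or 16.1, 15.7 and 17.1 CPM against 33.7, 22.5 and 22.9 CPM. All 3 KO libraries lay above all 3 WT libraries, and KO replicate 1 was the highest. The means were 16.3 ± 0.746 and 26.4 ± 6.33 CPM (SD, n = 3 each). The log2 fold change was 0.69 (SE 0.24, 95% interval 0.18 to 1.21) and did not pass, with an adjusted p of 0.112 in edgeR's quasi-likelihood test. Scaling by library totals alone gave 0.93 and an adjusted p of 0.027 in edgeR, but that scaling also shifted the median log2 fold change of all genes to 0.251.

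The make-up of the METTL21 trio therefore differed between genotypes. Levels of different genes are compared per kilobase of the longest protein-coding transcript. The 3 genes summed to 50.2, 40.2 and 75.4 CPM per kb in WT and 15.4, 9.01 and 10.2 in KO. Mettl21a made up 12.0, 14.6 and 8.52% of that sum in WT and 81.8, 93.6 and 84.5% in KO. Because the falls of Mettl21c chose the members, these shares are a description. They also rest on the transcript lengths: with the longest annotated transcript of each gene, the sums were 20.6, 17.8 and 30.3 CPM per kb in WT and 13.5, 8.62 and 9.08 in KO. Mettl21a then made up 29.3, 33.1 and 21.2% in WT and 93.5, 97.9 and 94.6% in KO. Within the pair of muscle genes, Mettl21c gave 97.4, 95.1 and 95.1% of the WT level per kb.

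**Figure D1:**
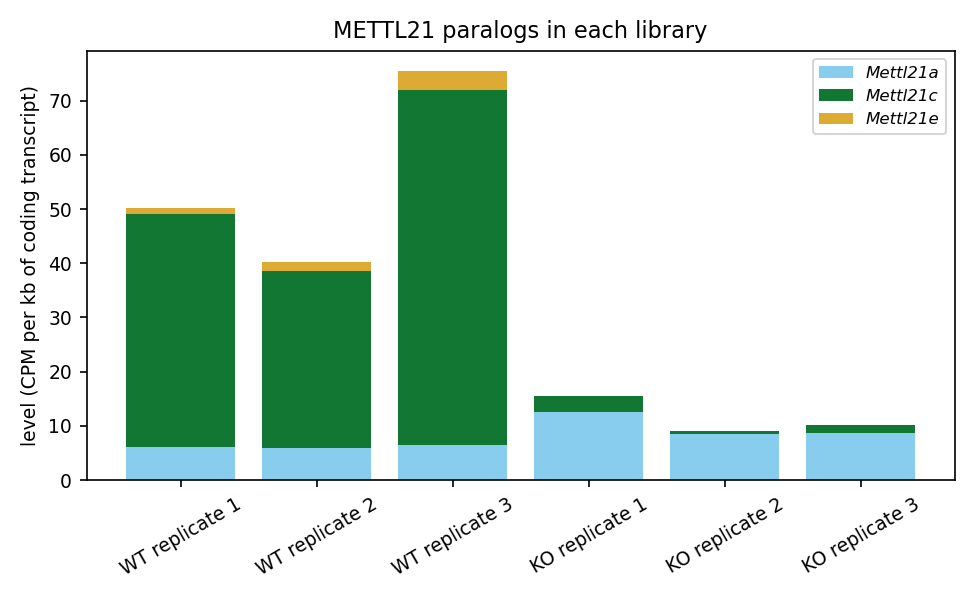
Level of Mettl21a, Mettl21c and Mettl21e in each library, stacked, in CPM per kb of the longest protein-coding transcript (y axis) for WT and KO replicates 1 to 3 (x axis). Mettl21c fills most of each WT bar (sums 40.2 to 75.4), and Mettl21a most of each KO bar (sums 9.01 to 15.4).

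Mss51 had 1 count in all KO libraries together. Its counts were 46, 53 and 47 in WT and 0, 0 and 1 in KO, or 33.6, 36.1 and 32.2 CPM against 0, 0 and 0.573 CPM. The WT libraries were close to each other (34.0 ± 2.0 CPM, SD, n = 3), and the single KO count came from KO replicate 3. KO held 0.591% of the WT level (exact binomial 95% interval 0.0149 to 3.35%), 169-fold lower (29.9 to 6727). With KO replicate 3 left out, no count remained in KO, and the share becomes a bound of at most 2.73% from 3 counts over the group.

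The SMYD members gave no such difference. Smyd1 had 484, 342 and 650 counts in WT and 440, 470 and 693 in KO, or 353, 233 and 445 CPM against 269, 294 and 397 CPM. The groups overlapped, and the highest and the lowest value both came from WT. The means were 344 ± 106 and 320 ± 67.8 CPM (SD, n = 3 each). The log2 fold change was -0.10 (SE 0.25, 95% interval -0.69 to 0.48), and edgeR's adjusted p was 0.876.

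Smyd2 had 63, 55 and 72 counts in WT and 69, 54 and 92 in KO, or 46.0, 37.5 and 49.3 CPM against 42.2, 33.7 and 52.7 CPM. KO replicate 2 was the lowest library and KO replicate 3 the highest, so the groups overlapped. The means were 44.2 ± 6.09 and 42.9 ± 9.5 CPM (SD, n = 3 each). The log2 fold change was -0.04 (SE 0.20, 95% interval -0.47 to 0.39), with an adjusted p of 0.944 in edgeR's test. The 95% intervals of Smyd1 and Smyd2 hold changes in either direction, so these values do not show equal levels. Smyd1 and Smyd2 together gave 132, 91.7 and 162 CPM per kb in WT and 105, 107 and 149 in KO, and Smyd1 made up 75.7 to 81.9% of it in every WT library and 76.1 to 81.3% in every KO library.

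**Figure D2:**
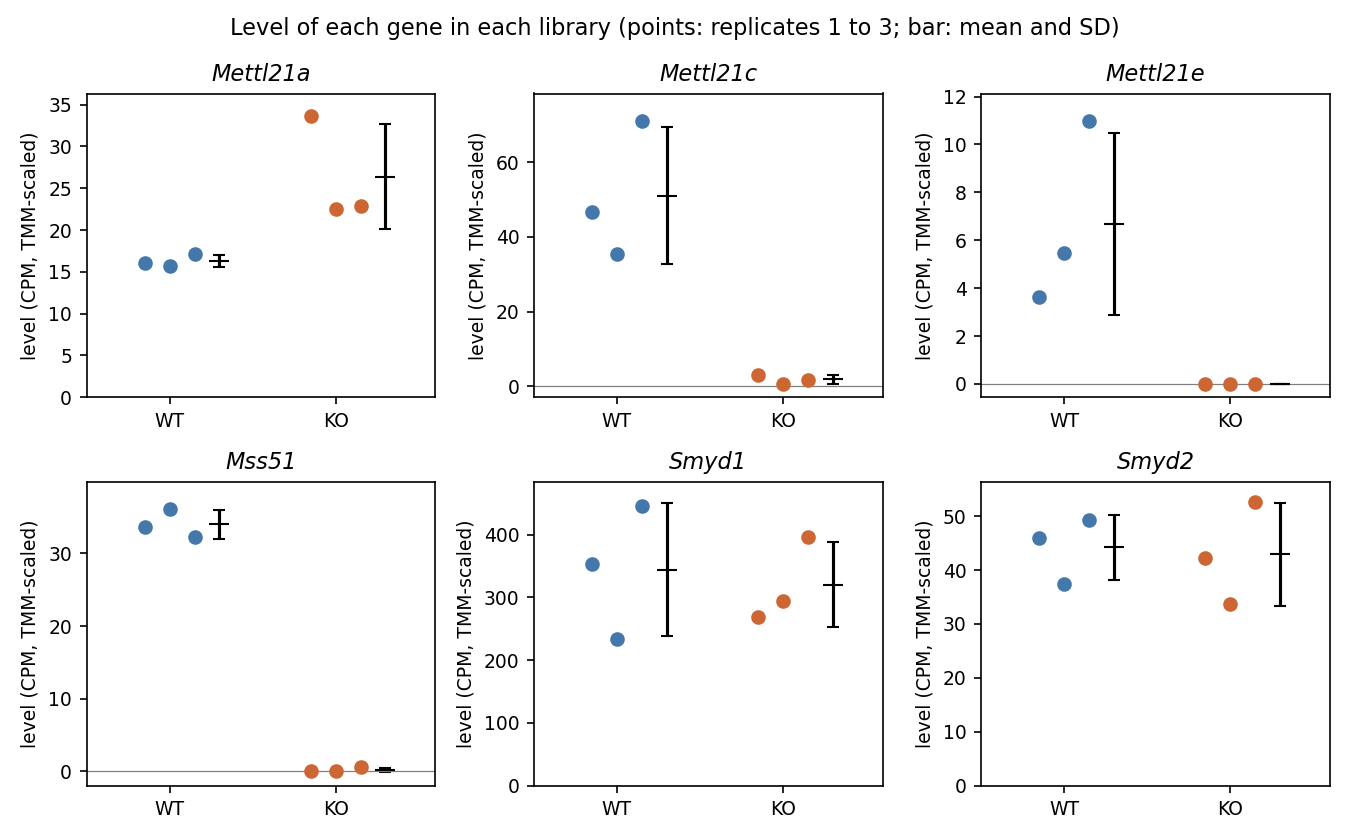
CPM (TMM-scaled, y axis) of each of the 6 genes in each WT and KO library (x axis), with the mean and SD beside each group. Mettl21c, Mettl21e and Mss51 lie at or near 0 in KO, Mettl21a lies above WT in all 3 KO libraries, and the groups overlap for Smyd1 and Smyd2.

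Of the 6 members, 4 had groups that did not overlap, 3 of them lower and 1 higher in KO. Of all 6680 tested genes, 25.8% had groups that did not overlap, 12.2% lower and 13.5% higher. The members' count cannot be read against that share, since 2 of the 6 were picked for their loss and Mettl21e was not among the tested genes. Of the 3 tested members that joined by family, 0 passed the test, where 6.26% of genes passed in either direction, 3.28% lower and 2.98% higher. Over all tested genes the median log2 fold change was 0.02, with 3471 above 0 and 3209 below.

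Complete or near-complete loss was rare among tested genes above a set WT level. Genes below that level, Mettl21e among them, were not counted. Of 5398 tested genes with a WT mean of at least 10 CPM, 8 had a KO mean under 10% of the WT mean, and Mettl21c and Mss51 were among the 3 under 5%. The third was Flrt1, listed at 0 in all KO libraries, and the others were Asb15, Tspan8, Neu2, Asb5 and Macrod1. This ranking uses the values that picked Mettl21c and Mss51 and is a description.

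Per kilobase of the longest protein-coding transcript, the WT order was Smyd1 (mean 102, libraries 69.3 to 132 CPM per kb), Mettl21c (47.1, 32.6 to 65.6), Smyd2 (26.3, 22.3 to 29.3), Mss51 (18.6, 17.6 to 19.8), Mettl21a (6.11, 5.89 to 6.41) and Mettl21e (2.08, 1.14 to 3.43). No neighbours in this order overlapped in range. In KO the order was Smyd1 (95.2, libraries up to 118), Smyd2 (25.5, 20.1 to 31.4), Mettl21a (9.9, 8.44 to 12.6), Mettl21c (1.66, 0.576 to 2.82), Mss51 (0.105, 0 to 0.314) and Mettl21e (0). Smyd1 was first in both genotypes, while Mettl21c and Mss51 moved below Mettl21a in KO. The place of Mettl21c rests on the transcript chosen: its longest annotated transcript is 3482 bases against 1086 for the longest protein-coding one, and with that length its WT level was 14.7 CPM per kb, under that of Mss51.

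Other genes of the METTL21-type family did not pass the test. The list of 11 had 7 tested genes, and without the members it had 5, of which 0 passed higher or lower (smallest adjusted p in edgeR 0.115, median log2 fold change -0.33, range -0.43 to 0.69). Beside the 6.26% of all tested genes that passed, 5 genes are too few to compare. Of the 5, 2 had groups that did not overlap, where 25.8% of all tested genes did. Mettl22, which methylates the DNA-binding protein KIN, was lower in all 3 KO libraries, at 117, 138 and 142 CPM in WT against 103, 105 and 93.4 CPM in KO (log2 fold change -0.40, edgeR adjusted p = 0.115). Eef2kmt, which methylates the elongation factor eEF2, was higher in all 3, at 22.6 ± 7.5 against 36.8 ± 3.68 CPM (log2 fold change 0.69, edgeR adjusted p = 0.116).

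Mettl23 had means of 128 and 102 CPM (log2 fold change -0.33, adjusted p = 0.289 in edgeR's test). Mettl18, a histidine methyltransferase of the ribosome, had means of 8.37 and 6.09 CPM (log2 fold change -0.43, edgeR adjusted p = 0.655), and Etfbkmt, which methylates an electron transfer flavoprotein, 6.04 and 7.97 CPM (0.40, 0.597). Eef1akmt3, Vcpkmt and Camkmt were too low for the test. Eef1akmt3 had CPM of 2.92, 3.41 and 2.74 in WT and 11.0, 3.75 and 4.01 in KO, with no overlap. Its highest WT library (3.41 CPM) and lowest KO library (3.75 CPM) lay less than 1 count apart, and KO replicate 1 stood well above the rest. Vcpkmt and Camkmt overlapped between genotypes, with means of 1.4 and 3.22 CPM for Vcpkmt and 0.486 and 0.807 CPM for Camkmt.

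The remaining SMYD genes did not pass either. Of 3, 2 were tested: Smyd3 had means of 6.05 and 7.79 CPM (log2 fold change 0.37, edgeR adjusted p = 0.62) and Smyd5 5.88 and 6.8 CPM (0.22, 0.851). Smyd3 was higher in all 3 KO libraries, but its highest WT library (6.85 CPM) and lowest KO library (6.87 CPM) lay less than 1 count apart. Of all tested genes, 13.5% were higher in KO with no overlap. Smyd4, too low for the test, had CPM of 2.92, 2.73 and 2.05 in WT and 4.28, 3.75 and 6.87 in KO, with no overlap. Among the other 15 MYND genes, 5 were tested and 0 passed (median log2 fold change 0.14, smallest adjusted p in edgeR 0.176), 4 of them above 0. That smallest p was for Zmynd8, a chromatin reader, at 14.4 ± 1.74 against 22.6 ± 5.79 CPM with no overlap (log2 fold change 0.65). Its highest WT library (16.4 CPM) and lowest KO library (16.5 CPM) also lay less than 1 count apart. Beside the 6.26% of all tested genes that passed, 2 SMYD and 5 MYND genes are too few to compare.

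Of 25 genes outside the members whose symbol starts with Mettl, 15 were tested and 0 passed (median log2 fold change -0.07, smallest adjusted p 0.11 in edgeR). The tested ones include Mettl18, Mettl22 and Mettl23, already given with the METTL21-type family, so the lists are not separate. A count of 0 among 15 lies near the 6.26% of all tested genes that passed. In a list of 36 other protein methyltransferases, of which 35 are in the table and 1 (Mettl13) is also among the Mettl-named genes, 23 were tested and 1, Kmt5a, passed, lower. The share of all tested genes that passed lower was 3.28%. Kmt5a, a histone methyltransferase, had CPM of 111, 136 and 149 in WT and 38.5, 68.7 and 79.1 in KO. The difference on the log2 scale was -1.08 (SE 0.23, adjusted p = 0.0149 with edgeR), and the call ended without WT replicate 2 (edgeR adjusted p = 0.0737) or without WT replicate 3 (0.0601).

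**Figure D3:**
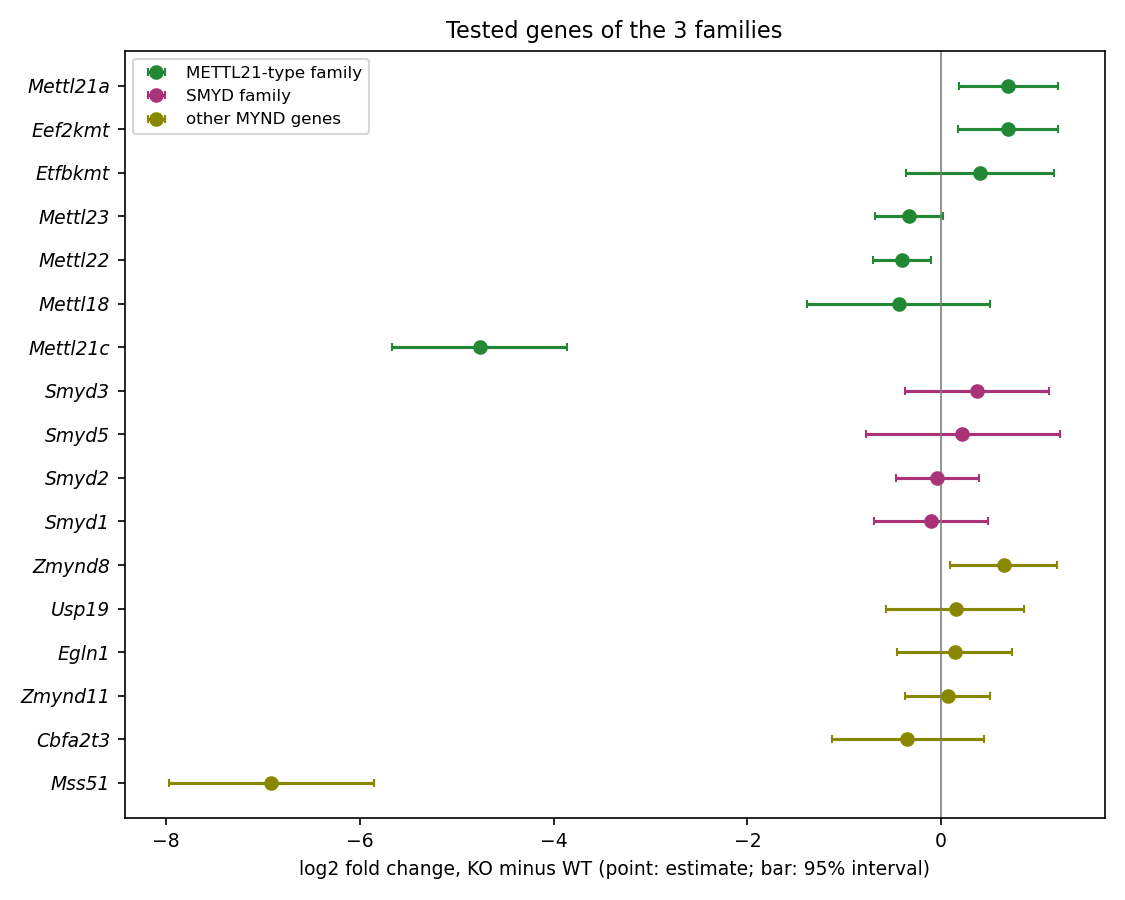
Log2 fold change, KO minus WT (x axis), of each tested gene of the METTL21-type, SMYD and other MYND lists (y axis), with 95% intervals. Mettl21c (-4.76) and Mss51 (-6.92) stand far to the left, and the estimates of all other genes lie between -0.43 and 0.69. Mettl21c and Mss51 were picked for their loss, so their place and their intervals are a description and not a test.

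Proteins that METTL21 or SMYD enzymes methylate or bind were taken as a list of 15, of which 13 were tested: 2 passed higher and 1 lower, with a median of 0.14. The shares over all tested genes were 2.98% higher and 3.28% lower. Vcp, which VCPKMT methylates, had means of 297 ± 9.41 and 407 ± 65.2 CPM (log2 fold change 0.46 with an SE of 0.12, adjusted p = 0.0428 in edgeR). That call was lost in 9 of 15 alternatives, among them DESeq2 (adjusted p = 0.151) and each of the leave-outs of WT libraries, up to an adjusted p of 0.225 in edgeR. Hspa1l, a testis-enriched HSP70 gene, had means of 7.26 ± 3.33 and 21.4 ± 4.55 CPM (log2 fold change 1.55, edgeR adjusted p = 0.0124) and kept its call in 15 of 15 alternatives. Its close copies Hspa1a and Hspa1b make this count uncertain. Ttn, the giant protein titin, had means of 6458 ± 431 and 3289 ± 894 CPM (log2 fold change -0.97, edgeR adjusted p = 0.0138), a call that ended when WT replicate 3 (0.0526) or KO replicate 2 (0.0598) was left out.

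The other chaperone and translation partners did not pass. Hspa8, the constitutive HSP70 that METTL21A methylates, had means of 2585 and 2704 CPM (log2 fold change 0.06, edgeR adjusted p = 0.773). Hspa5, the endoplasmic reticulum HSP70, had 148 and 201 CPM with no overlap (0.44, edgeR adjusted p = 0.0625). Unc45b, a myosin chaperone, had 239 and 268 CPM (0.17, edgeR adjusted p = 0.48), and Naca, whose muscle isoform binds SMYD1, had 259 and 260 CPM (0.01, 0.989). Scaling by library totals alone called 6 of the 13 higher in place of 2.

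For the pathway to which MSS51 has been linked, 10 of 18 TGF-beta and myostatin genes were tested, and 1 passed, lower. Over all tested genes, 3.28% passed lower. Smad3, a signal transducer of that pathway, had means of 31.3 ± 9.08 and 16.6 ± 3.21 CPM (log2 fold change -0.91 with an SE of 0.26, adjusted p = 0.0487 in edgeR). The call was lost in 10 of 15 alternatives, including each left-out library, with adjusted p values of up to 0.2 in edgeR. Mstn, which encodes myostatin and is named after its values were seen, had 73.0, 111 and 162 CPM in WT and 66.7, 25.0 and 39.5 in KO. Its groups did not overlap, and edgeR's adjusted p was 0.149 for a log2 fold change of -1.40. It passed, lower, in 3 of the alternatives: limma-voom (adjusted p = 0.0363), edgeR without robust dispersion (0.0319) and edgeR with the slow-fibre covariate (0.0364).

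Some fibre-type genes also differed between genotypes. Of 13 fast-fibre genes, 7 passed lower and 0 higher (median log2 fold change -0.67, summed level 225082 to 290746 CPM in WT and 151932 to 179968 in KO). Over all tested genes, 3.28% passed lower and 2.98% higher. Myh4, the myosin of the fastest fibres, had means of 21073 and 8214 CPM (log2 fold change -1.36, edgeR adjusted p = 6.73e-06). Of 9 tested slow-fibre genes, 1 passed higher and 0 lower (median log2 fold change 0.85). It was Casq2, the slow and cardiac calsequestrin, with means of 15.8 ± 1.69 and 41.9 ± 10.2 CPM and no overlap (log2 fold change 1.40, adjusted p = 0.0024 in edgeR). The summed slow-fibre level varied widely within genotypes: it ran from 81.5 to 465 CPM in WT and 140 to 1470 in KO, and Myh7, the slow myosin, had means of 34.3 and 28.5 CPM. The 17 genes of a list compiled for denervation summed to 207 to 243 CPM in WT and 790 to 1202 in KO. Of these, 10 were tested and 6 passed higher, where 2.98% of all tested genes did. Most of the summed rise came from Myog (means 36.4 and 453 CPM) and Chrna1 (13.7 and 271 CPM). Dok7 went the other way (83.9 and 47.4 CPM) and did not pass. Of the genes too low for the test, Chrnd, Chrng, Ncam1, Runx1, Gadd45a and Myh3 overlapped between genotypes, and Myh8 was higher in KO with no overlap. With the mean level of the slow-fibre genes as a covariate, the log2 fold changes were 0.70 for Mettl21a, -0.04 for Smyd1 and -0.01 for Smyd2. The part of the fast-fibre and denervation genes in the members' values was not tested. Mef2c, the factor of the series title, had 348, 363 and 366 CPM in WT and 154, 151 and 181 in KO, and its fold change was -1.15 on the log2 scale (edgeR adjusted p = 2.50e-05).

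No neighbour of a member passed the test. The 3 listed genes on each side of each member came to 35 genes, 17 were tested and 0 passed, with 1 whose groups did not overlap. Over all tested genes, 6.26% passed and 25.8% had groups that did not overlap. A count of 0 among 17 lies near the share that passed and is no result about these neighbours. Between Mettl21c and Mettl21e lie 5 listed genes, 3 of them tested. Tex30 had means of 12.6 and 12.6 CPM, Kdelc1 6.99 and 7.68 CPM, and Ercc5 7.95 and 6.92 CPM. Tpp2, on the other side of Mettl21c, had means of 48.7 and 58.2 CPM. These 4 neighbours had counts in every KO library, where Mettl21e had none. Of the other 2 genes between, Gm8251 had no count in any library, and Bivm was too low for the test, with means of 3.3 and 2.01 CPM.

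Beside Mss51, Anxa7 had means of 69.6 and 73.2 CPM, and Ppp3cb, a calcineurin subunit that is the 1 non-overlapping neighbour, 23.9 ± 3.42 and 13.8 ± 1.95 CPM. Its log2 fold change was -0.79 (edgeR adjusted p = 0.0657). Ppp3cb is named after its values were seen, as the single neighbour of that kind.

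**Figure D4:**
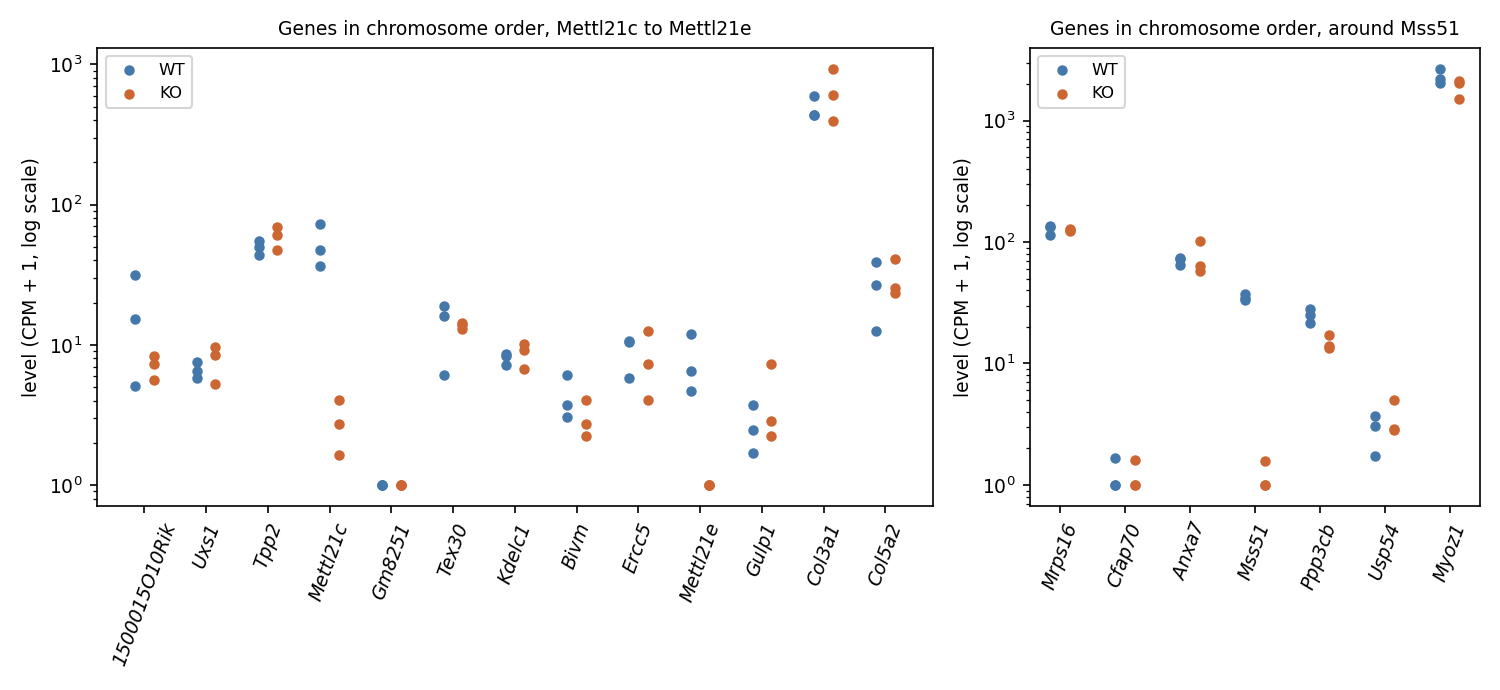
Level of each listed gene (CPM + 1 on a log axis) in the 3 WT and 3 KO libraries, in chromosome order around Mettl21c and Mettl21e (left) and around Mss51 (right). The KO points of Mettl21c, Mettl21e and Mss51 lie near the bottom, and the WT and KO points of most genes beside them overlap.

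The genes most like each tested member were sought by Pearson's r of log2 CPM over the 6 libraries, among 6679 genes, as a description. The 6 points split into WT and KO, with 3 libraries in each, so a genotype difference alone can give a high r. Of all tested genes, 12.2% were lower in KO with no overlap. For Mss51 the most similar genes were Kcnj2, Mef2c and Ppp1r3a (0.997 each), all with a lower mean in KO. For Mettl21c they were Asph (0.995), Lrrc30 (0.994) and Tmem109 (0.994), and for Mettl21a Hypk (0.992), Poglut1 (0.991) and Ubxn4 (0.99). For Smyd1 they were Ciao1 (0.991), Atp5s (0.979) and Lig3 (0.968), and for Smyd2 Net1 (0.972), Actr10 (0.972) and Nelfb (0.954). Among the members, Mettl21c and Mss51 had 0.972, Smyd1 and Smyd2 0.786, and Mettl21a and Mss51 -0.88. Mettl21c and Mss51 were both picked for their loss in the same KO libraries, so a high r between them follows from that choice.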

How the data were processed

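Per the labels' protocols, quadriceps femoris RNA was reverse transcribed with template switching, the cDNA was amplified for 14 PCR cycles, and libraries were run on the Oxford Nanopore PromethION platform. The submitters' processing notes name minimap2 (no version), DESeq2 1.6.3 and GRCm38, and the sources used here do not name the counter, annotation release or strand use. Per the file headers, the deposited values include whole-number counts per Ensembl gene with no normalization. The CPM that the authors deposited beside them served only to find the library totals. The listed genes left 3.09 to 4.1% of those totals out. Of 22036 identifiers, 22022 matched the symbol table.

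The test of the counts used edgeR 4.0.16 under R 4.3.3 (genes kept by filterByExpr on genotype, minimum count 10 and total 15, leaving 6680 genes, TMM scaling, robust quasi-likelihood test, Benjamini-Hochberg adjustment, threshold 0.05). The SE is the size of the log2 fold change divided by the root of F. DESeq2 1.42.0 and limma 3.58.1 (voom) served as alternatives, with other scalings, filters, a slow-fibre covariate and each library left out. The edgeR fit was tested on simulated data with known changes. It called 18.4% of 1.5-fold, 59.6% of 2-fold, 100% of 4-fold and 97.9% of 8-fold changes, with 9 false calls among 140. A gene that did not pass can thus still differ by 2-fold. A gene that varies between libraries can differ by more: Mstn did not pass at a log2 fold change of -1.4. Pooled ratios carry exact binomial intervals, which, without molecular identifiers, cover counting error only. The members and lists were chosen with earlier results of these data known. Named are every member, each gene of the METTL21-type and SMYD lists with a count, up to 4 genes per list that passed, Mef2c, Myh4, Myh7 and the 3 most similar genes per tested member. Exceptions, such as neighbours, near-threshold partners and Flrt1, were named after their values were seen. Per-kb levels and shares with the longest transcript were added after seeing the data.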

Additional observations from a re-analysis of the deposited data

How the results depend on the processing

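Over 15 alternatives, the log2 fold change of Mettl21a stayed between 0.48 and 0.93 and passed only with library totals in place of TMM (0.93). That scaling shifted the median of all genes to 0.251 and called 653 genes higher and 148 lower, against 199 and 219. With no filter on low counts 344 genes were called higher and 362 lower. Leaving out 1 library gave 83 to 179 higher and 154 to 187 lower, and the count higher was 101 without WT replicate 1, 83 without WT replicate 2 and 129 without WT replicate 3. Smyd1 changed sign with library totals (0.14), and left-out libraries gave -0.35 to 0.12, with 0.12 without WT replicate 3 and 0.01 without KO replicate 1. Smyd2 changed sign with library totals (0.19), and left-out libraries gave -0.22 to 0.10, with 0.04 without WT replicate 3 and 0.10 without KO replicate 2. No Smyd1 or Smyd2 value passed. With left-out libraries, Mettl21c stood at 2.34 to 4.62% of WT, Mss51 at 0.573 to 2.73% (the latter a bound, without KO replicate 3), and Mettl21e at least 7.29- to 13.9-fold lower. The cause of these shifts was not tested. Robust dispersion, the covariate, DESeq2 and voom give no separate value for these pooled ratios. The other family calls under library totals were Eef2kmt (0.94), Zmynd8 (0.88) and Mettl7a1 (0.71), all higher. No paired analysis was possible because the labels' numbers of WT and KO libraries share fewer than 2 values. With 3 libraries per genotype, and 1 count worth up to 0.73 CPM, genes of a few CPM were measured with few counts.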
